A study of Mus musculus with 9 samples.

Results

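The genes described here are Atf4 and 9 genes of the amino acid response: Ddit3, Trib3, Phgdh, Psat1, Shmt2, Asns, Slc7a5, Slc3a2 and Slc7a11. They were chosen by name, with earlier results of these data known. Each was read from the brightest probe set, by its mean over the 9 arrays, among those that carry its symbol alone. They are 10 of the 18194 genes named on the arrays, and 9 of them passed the filter on dim genes, which left 12826 genes tested. The study hybridised RNA of sorted mouse blood cells to 9 Affymetrix arrays, 3 in each group, and set leukaemic cells against wild type cells. K/L cells came from leukaemic mice with mutations of Cebpa on both alleles, Sox4 cells from leukaemic mice that overexpress the transcription factor Sox4, and wild type cells from mice with neither change. All mice were C57/BL6, aged 2 to 4 months, and all cells were sorted as the FrII fraction, which is negative for lineage markers and Sca-1, positive for c-Kit, and low or positive for Mac1. The source names of the leukaemic samples add CD45.1-CD45.2+, which those of the wild type samples do not, and it is not known here if the CD45 gate was applied to wild type cells. The labels do not say what drives Sox4 or how the leukaemias were started, and they say nothing of donors or litters, so that a p-value reflects only the spread among arrays.

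ATF4 is a transcription factor of the basic leucine zipper family. When a cell lacks amino acids, or when unfolded proteins pile up in the endoplasmic reticulum, kinases phosphorylate the initiation factor eIF2, general translation slows, and the Atf4 messenger is translated more. ATF4 protein then binds composite sites with C/EBP family partners and raises transcription of genes for amino acid synthesis and uptake, transfer RNA charging and, under prolonged stress, cell death. Arrays measure the messengers and not the ATF4 protein.

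The promoter windows of 3 of these genes hold the letters TGATGNAA, a core of the composite sites that C/EBP and ATF proteins bind, and these windows are shown because they differ in how many matches they hold and because their genes behaved differently on the arrays. RefSeq windows of assembly GRCm38.p6, from 250 bases before to 50 bases after a transcript start, were found for 9 of the 10 genes (10 windows), all but Slc7a5, and were searched on both strands. The windows of Slc7a11 and Slc3a2 lie inside the span of their gene (chr3:50364936-50499087 and chr19:8706882-8723369). They belong to an inner transcript start, and the outermost starts of these 2 genes were not searched. The motif lies in 3.97 percent of all 32851 such windows and occurs at least 2 times in 23 of them. A match is a description of letters and not evidence of binding. The sequences run 5′ to 3′ on the strand of the gene, which is the minus strand for all 3, with the motif in capitals. Asns holds 1 match on its own strand, 23 to 16 bases before its start (chr6:7693210-7693459). Slc7a11 holds 2, 1 on its own strand 66 to 59 bases before the inner transcript start and 1 on the opposite strand 47 to 40 bases before it (chr3:50443614-50443863). Trib3 holds 1 on the opposite strand, 15 to 22 bases after its start, shown with its neighbouring bases only (chr2:152344028-152344057).
Asns: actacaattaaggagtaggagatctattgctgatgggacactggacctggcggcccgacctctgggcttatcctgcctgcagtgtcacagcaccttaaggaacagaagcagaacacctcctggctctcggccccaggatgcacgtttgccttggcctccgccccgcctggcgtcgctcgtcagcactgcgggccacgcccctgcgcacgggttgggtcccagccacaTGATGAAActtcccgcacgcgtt
Slc7a11: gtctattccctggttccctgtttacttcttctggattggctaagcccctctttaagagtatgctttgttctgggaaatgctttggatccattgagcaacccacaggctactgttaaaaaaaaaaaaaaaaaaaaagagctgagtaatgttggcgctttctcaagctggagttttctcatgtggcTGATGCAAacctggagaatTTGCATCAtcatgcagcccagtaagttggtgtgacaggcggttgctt
Trib3: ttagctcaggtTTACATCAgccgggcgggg
The windows of Atf4, Ddit3, Phgdh, Psat1, Shmt2 and Slc3a2 had no match, which says only that these letters are not in those 300 bases.

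Some features of the whole series bear on the values below. Wild type array 3 stood apart from the other wild type arrays (Pearson r of 0.979 and 0.977, against at least 0.991 within all other pairs of a group), and results that rest on it are given with and without it. Sox4 messenger measured 10.52 to 10.87 on the log2 scale in K/L cells and 9.61 to 9.87 in Sox4 cells, against 3.81 to 3.97 in wild type cells, and Cebpa was higher in both leukaemias. Sox4 array 1 gave signal of Xist (12.1) and little of Kdm5d (4.14), a gene of the Y chromosome, as from a female mouse. Sox4 array 3 gave signal of both (11.63 and 9.01), and it may hold more than 1 mouse. Sox4 array 2 and all K/L and wild type arrays had Kdm5d of at least 9.6 and Xist of at most 5.34. Sex thus differs between the Sox4 group and the other groups. Of the sort markers, Kit lay between 9.1 and 9.36 on all arrays, while Itgam, which encodes Mac1, lay at 3.7 to 4.02 in K/L, 3.97 to 4.47 in Sox4 cells and 4.76 to 4.99 in wild type cells, near or below the 40th percentile of an array (4.84 to 4.95). The 3′ over 5′ signal of the Gapdh control probes, a readout of RNA quality, moved with the groups. Its ratio ran from 1.93 to 2 on K/L arrays, from 2.22 to 2.44 on Sox4 arrays and from 2.68 to 2.91 on wild type arrays. The same ratio of the Actb control probes overlapped between the groups. It was 0.87 to 0.91 on K/L, 0.88 to 0.91 on Sox4 and 0.88 to 0.98 on wild type arrays.

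Marker genes of other cell types also moved with the groups. The summed intensity of late neutrophil genes (9 of 10 on the arrays) was 262 to 402 in K/L, 4079 to 4314 in Sox4 cells and 15238 to 20696 in wild type cells, that of monocyte genes (8 of 8) was 5365 to 6265 in K/L, 7867 to 8685 in Sox4 cells and 3834 to 4101 in wild type cells. Mast cell and basophil genes (6 of 6) summed to 4710 to 5408 in K/L, 1387 to 1884 in Sox4 cells and 919 to 1236 in wild type cells. Eosinophil genes (5 of 6) summed to 3558 to 3673 in K/L, 1232 to 1576 in Sox4 cells and 1233 to 2201 in wild type cells. Erythroid genes (8 of 10) summed to 1455 to 1687 in K/L, 2980 to 3486 in Sox4 cells and 2328 to 2702 in wild type cells. Megakaryocyte genes (6 of 7) summed to 219 to 226 in K/L, 1327 to 2121 in Sox4 cells and 279 to 335 in wild type cells. Genes of B cells (6 of 7) summed to 701 to 746 in K/L, 539 to 682 in Sox4 cells and 362 to 451 in wild type cells, and those of T and NK cells (5 of 7) to 160 to 172 in K/L, 163 to 169 in Sox4 cells and 149 to 157 in wild type cells. A sum follows its brightest genes, and single markers went other ways. S100a8 and S100a9 carried the late neutrophil sum in Sox4 and wild type cells, while in K/L cells they averaged only 4.64 and 6.24. Ltf averaged 4.96 in K/L, 7.37 in Sox4 cells and 5.04 in wild type cells, and Ngp 5.17 in K/L, 7.89 in Sox4 cells and 6.21 in wild type cells. Cpa3 and Mcpt8 carried the mast cell and basophil sum, while Ms4a2 averaged 4.96 in K/L, 8.56 in Sox4 cells and 6.22 in wild type cells. Siglecf and Prg3 carried the eosinophil sum in K/L cells, with means of 11.01 and 10.4, and Siglecf in wild type cells, with 10.65. In Sox4 cells Prg2 was the brightest of these genes, above Siglecf at 8.45 and Prg3 at 7.48. Epx averaged 4.49 in K/L, 7.31 in Sox4 cells and 4.19 in wild type cells, and Prg2 7.21 in K/L, 9.43 in Sox4 cells and 4.98 in wild type cells. Of the monocyte genes, Adgre1 averaged 7.89 in K/L, 5.08 in Sox4 cells and 8.3 in wild type cells. Csf1r averaged 9.49 in K/L, 11.22 in Sox4 cells and 9.6 in wild type cells. Tfrc, the brightest erythroid gene, averaged 10.37 in K/L, 10.92 in Sox4 cells and 11.19 in wild type cells. By contrast Klf1 averaged 5.66, 6.8 and 5.7, and Car2 5.94, 9.42 and 5.01, in the same order. None of the late neutrophil and monocyte genes lay below the 40th percentile on every array, while Epor, Ppbp, Ms4a1, Ebf1, Cd3g, Ncr1, Tpsb2 and Ccr3 did. The part of these cell types, of sex and of RNA quality in the results below was not tested.

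Set against wild type, 6 of the 9 tested genes were higher in K/L cells and 0 were lower: Slc7a5, Asns, Shmt2, Psat1, Ddit3 and Phgdh. In Sox4 cells 5 were higher and 0 lower, the same genes without Ddit3. Called means an adjusted p under 0.05 in limma, over all tested genes. By that rule 50.6 percent of all tested genes were called in K/L cells (29 percent higher, 21.6 percent lower) and 47.8 percent in Sox4 cells (26.7 percent higher, 21.1 percent lower), so that a single called gene is common on these arrays. The median difference of the 9 genes was 0.67 in K/L cells on the log2 scale, against 0.06 over all tested genes, and 0.58 in Sox4 cells, against 0.03. As the genes were chosen with earlier results of these data known, this contrast is a description and not a test. Without wild type replicate 3 the median of the 9 genes was 0.6 in K/L and 0.49 in Sox4 cells. Both comparisons share the 3 wild type arrays and are not independent of each other. In bulk cells, fewer cells of a type and less RNA per cell cannot be told apart.

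**Figure D1:**
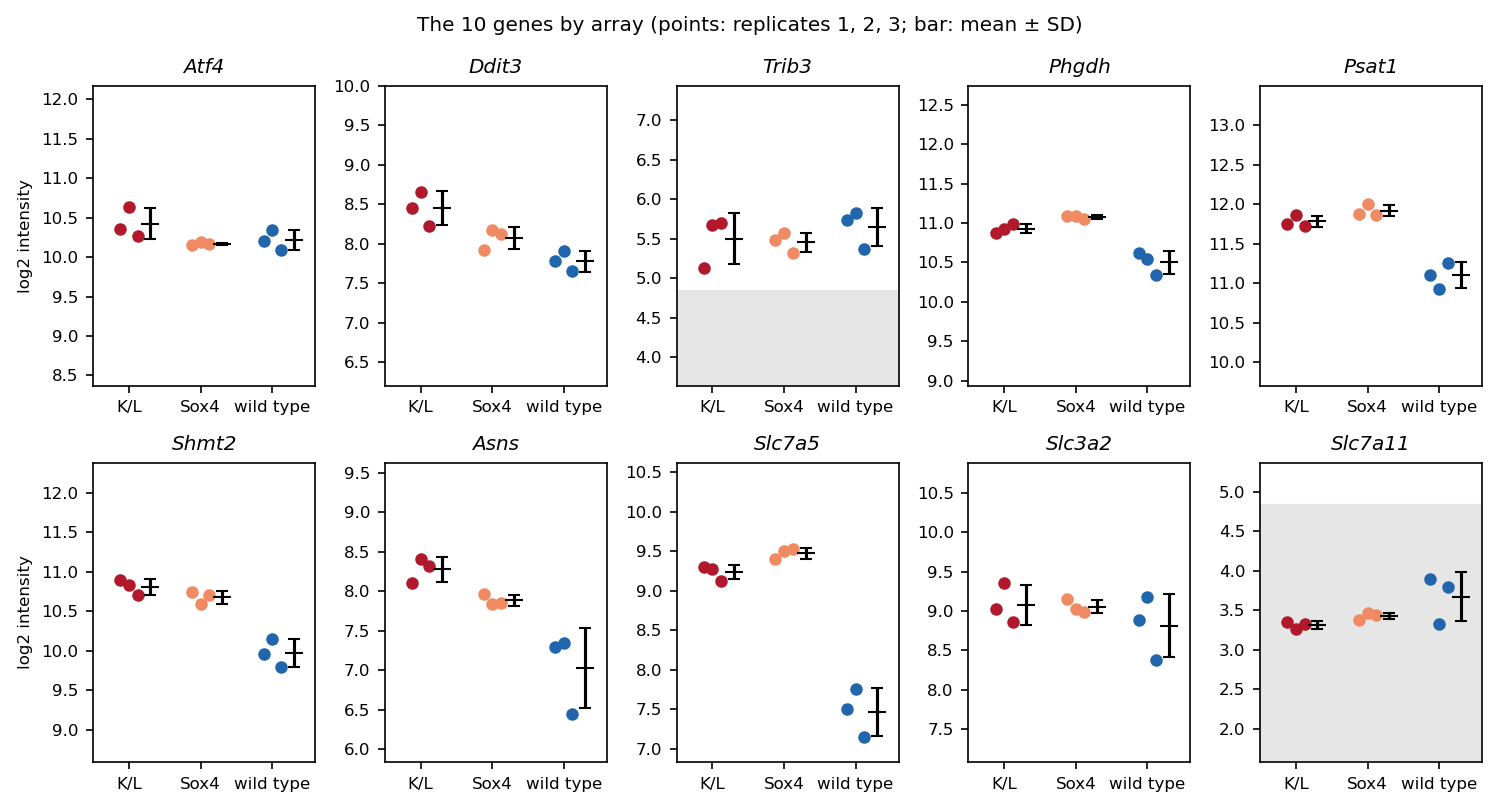
Log2 intensity of the 10 genes (vertical axis, the same span in each panel) on the K/L, Sox4 and wild type arrays, with points for replicates 1, 2 and 3 and a bar for mean ± SD. Grey marks values below the lowest 40th percentile of an array (4.84), where all points of Slc7a11 lie; Slc7a5, Asns, Shmt2, Psat1 and Phgdh show both leukaemias above wild type.

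Atf4 messenger itself did not pass the test in either leukaemia. It measured 10.36, 10.64 and 10.27 on the log2 scale in K/L cells, 10.15, 10.19 and 10.16 in Sox4 cells, and 10.21, 10.34 and 10.09 in wild type cells. Both leukaemias overlapped wild type, and the Sox4 arrays lay closest together. The difference was 0.21 ± 0.12 in K/L cells (standard error, 95 percent interval -0.05 to 0.47, adjusted p = 0.161) and -0.05 ± 0.12 in Sox4 cells (-0.31 to 0.21, adjusted p = 0.765). The call in K/L cells turned on the scaling: once arrays were centred on their medians the difference was 0.3 (adjusted p = 0.0475), while the median of all genes was then 0.15 in place of 0.06. With quantile normalisation Atf4 stayed uncalled in K/L cells, at 0.22 (adjusted p = 0.129 in limma).

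Ddit3 encodes CHOP, a leucine zipper factor that ATF4 induces and that is known for promoting cell death under lasting stress. It was higher in K/L cells, at 8.45, 8.66 and 8.23, against 7.92, 8.18 and 8.12 in Sox4 cells and 7.78, 7.91 and 7.65 in wild type cells. Each K/L array lay above each Sox4 array, as for 27.2 percent of tested genes, and above each wild type array, as for 33 percent. The difference from wild type was 0.67 ± 0.13 in K/L cells, or 1.59-fold (adjusted p = 0.00214). In Sox4 cells it was 0.29 ± 0.13 (95 percent interval -0.00 to 0.59, adjusted p = 0.0951), with each Sox4 array just above each wild type array, a separation found in the upward direction in 31.1 percent of all tested genes.

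Trib3, a pseudokinase gene that ATF4 and CHOP induce, had low signal. It measured 5.13, 5.67 and 5.7 in K/L, 5.48, 5.57 and 5.32 in Sox4 and 5.74, 5.83 and 5.37 in wild type cells. The groups overlapped, and the differences were -0.15 ± 0.18 in K/L cells (adjusted p = 0.512) and -0.19 ± 0.18 in Sox4 cells (adjusted p = 0.396). The intervals of the measured signal, -0.54 to 0.24 and -0.59 to 0.2, lie below the differences measured for Asns. The signal of Trib3 was not far above the 40th percentile of an array (4.84 to 4.95). The intervals therefore cannot show whether its messenger rose by as much as that of Asns.

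Phgdh, Psat1 and Shmt2, of the serine and glycine route, were higher in both leukaemias. Phgdh encodes phosphoglycerate dehydrogenase, which takes a glycolysis intermediate into serine synthesis, and Psat1 the aminotransferase of the next step. Phgdh measured 10.87, 10.93 and 10.99 in K/L and 11.09, 11.09 and 11.05 in Sox4 cells, against 10.62, 10.54 and 10.34 in wild type cells. Psat1 measured 11.75, 11.86 and 11.73 in K/L and 11.88, 12 and 11.87 in Sox4 cells, against 11.11, 10.93 and 11.26 in wild type cells. For both genes all leukaemic arrays lay above all wild type arrays. Each leukaemia alone, this held for 33 percent of tested genes in K/L and 31.1 percent in Sox4 cells. The share for both leukaemias together was not computed. Phgdh rose by 0.43 ± 0.1 in K/L cells (1.34-fold, adjusted p = 0.0052) and by 0.58 ± 0.1 in Sox4 cells (1.49-fold, adjusted p = 0.000948). Psat1 rose by 0.68 ± 0.11 in K/L cells (1.6-fold, adjusted p = 0.000514) and by 0.82 ± 0.11 in Sox4 cells (1.77-fold, adjusted p = 0.000165).

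Shmt2 encodes the mitochondrial enzyme that converts serine to glycine and hands a carbon unit to folate. Its values were 10.89, 10.83 and 10.7 in K/L and 10.74, 10.59 and 10.7 in Sox4 cells, against 9.96, 10.15 and 9.79 in wild type cells. Its leukaemic arrays all lay above wild type, as for 33 percent of tested genes in K/L and 31.1 percent in Sox4 cells. It rose by 0.84 ± 0.11 in K/L cells (1.79-fold, adjusted p = 0.000194) and by 0.71 ± 0.11 in Sox4 cells (1.63-fold, adjusted p = 0.000607).

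Asns encodes asparagine synthetase, the enzyme whose reaction makes asparagine from aspartate and glutamine and a standard readout of the amino acid response. Its values were 8.1, 8.41 and 8.32 in K/L and 7.97, 7.84 and 7.85 in Sox4 cells, against 7.3, 7.35 and 6.45 in wild type cells. Wild type array 3 was the lowest by far, and all leukaemic arrays lay above the other wild type arrays too. Such upward separation from wild type was found in 33 percent of tested genes in K/L and 31.1 percent in Sox4 cells. The difference was 1.24 ± 0.21 in K/L cells (2.37-fold, adjusted p = 0.000906) and 0.85 ± 0.21 in Sox4 cells (1.81-fold, adjusted p = 0.00831). Without wild type replicate 3 it was 0.95 in K/L and 0.56 in Sox4 cells, with adjusted p of at most 0.0305 over all such single omissions, so the call held and the size in Sox4 cells moved by over 1.5 times.

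The transporter genes gave differing results. Slc7a5 encodes LAT1, the light chain that exchanges large neutral amino acids such as leucine, and it showed the largest difference among the 9 genes in both leukaemias. It measured 9.3, 9.27 and 9.13 in K/L and 9.4, 9.5 and 9.53 in Sox4 cells, against 7.5, 7.75 and 7.15 in wild type cells. Its leukaemic arrays lay far above wild type, while separation of any size held for 33 percent of tested genes in K/L and 31.1 percent in Sox4 cells. It rose by 1.77 ± 0.14 in K/L cells (3.41-fold, 95 percent interval 1.45 to 2.09, adjusted p = 7.1e-06) and by 2.01 ± 0.14 in Sox4 cells (4.02-fold, 1.69 to 2.33, adjusted p = 3.47e-06). Among all 12826 genes these differences rank 732 and 533 by size.

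Slc3a2 encodes CD98, the heavy chain that pairs with LAT1 and other light chains at the cell surface. It did not pass the test: it measured 9.02, 9.35 and 8.86 in K/L and 9.15, 9.02 and 8.99 in Sox4 cells, against 8.88, 9.18 and 8.38 in wild type cells. Leukaemic arrays lay on both sides of wild type arrays. The difference was 0.26 ± 0.2 in K/L cells (-0.18 to 0.7, adjusted p = 0.298) and 0.24 ± 0.2 in Sox4 cells (-0.2 to 0.68, adjusted p = 0.344). Without wild type replicate 3 the difference was 0.04 in K/L and 0.02 in Sox4 cells.

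Slc7a11 encodes xCT, the exchanger that brings in cystine for glutathione synthesis and the gene whose promoter window holds the motif 2 times. It lay near the floor of the table (3 on the log2 scale) on every array, at 3.35, 3.26 and 3.33 in K/L, 3.38, 3.46 and 3.44 in Sox4 and 3.9, 3.33 and 3.8 in wild type cells, and was the only one of the 10 genes that missed the filter. With the filter lifted and 18194 genes tested, its difference was -0.36 ± 0.14 in K/L cells (adjusted p = 0.0787) and -0.25 ± 0.14 in Sox4 cells (adjusted p = 0.218). Its second probe set was dimmer still, so these values are not well above background and neither set can rank the groups.

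**Figure D2:**
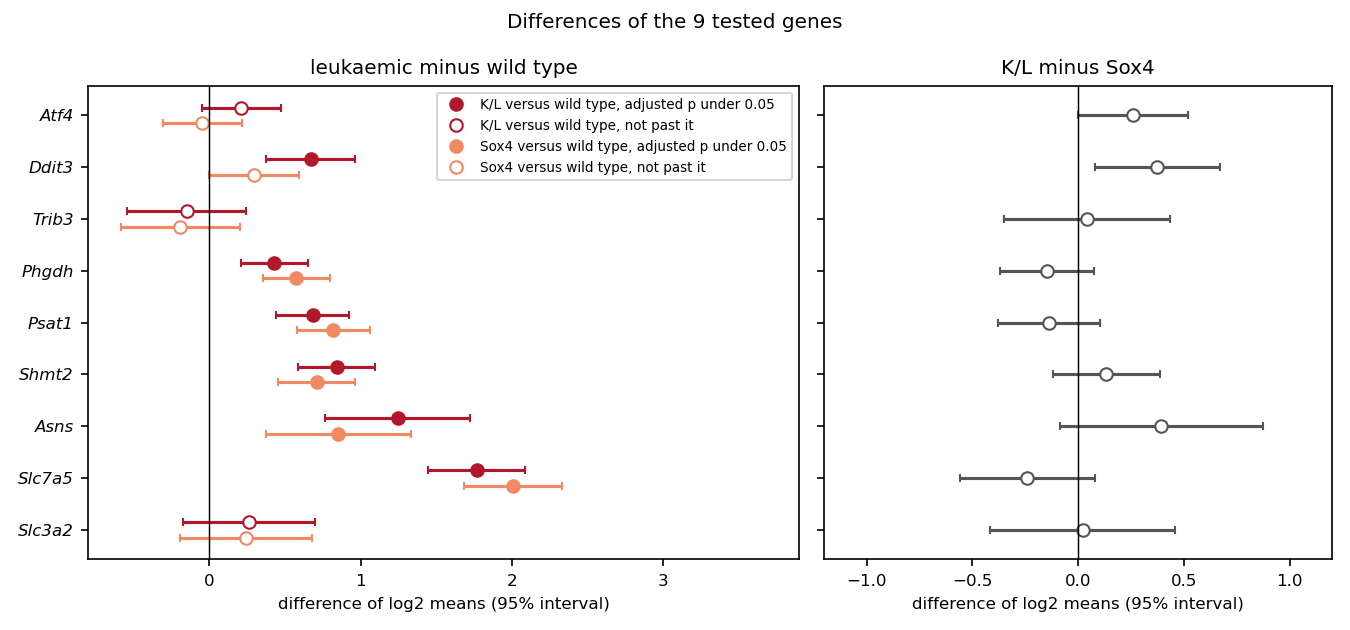
Differences of log2 means with 95 percent intervals for the 9 tested genes, K/L and Sox4 minus wild type on the left and K/L minus Sox4 on the right (filled: adjusted p under 0.05). Slc7a5 stands at 1.77 and 2.01, the serine and glycine genes between 0.43 and 0.84, Atf4, Trib3 and Slc3a2 have intervals across 0, and no point on the right is filled.

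The leukaemias were then set against each other, which is also the test of whether their changes from wild type differ. None of the 9 genes was called in limma, against 28.9 percent of all tested genes (14.9 percent higher and 14 percent lower in K/L cells), and 1 had an unadjusted p under 0.05. That gene was Ddit3, with K/L minus Sox4 of 0.37 ± 0.13 (95 percent interval 0.08 to 0.67, unadjusted p = 0.0185, adjusted p = 0.0604). It passed under several other settings: with each array centred on its median (0.46, adjusted p = 0.025), with quantile normalisation (0.39, adjusted p = 0.0451), with a stricter filter (adjusted p = 0.0494), and without K/L replicate 3 (0.48, adjusted p = 0.033) or wild type replicate 3 (adjusted p = 0.0429). Over all its alternatives the adjusted p ran from 0.025 to 0.742.

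For Atf4, K/L minus Sox4 was 0.26 ± 0.12 (-0.00 to 0.52, adjusted p = 0.131, and 0.34 with adjusted p = 0.0479 under median centring). With quantile normalisation it was 0.25 (adjusted p = 0.129 in limma). Asns gave 0.39 ± 0.21 (-0.09 to 0.87, adjusted p = 0.209), and passed where only the 2 leukaemias were fitted (adjusted p = 0.0189) or wild type replicate 3 was left out (adjusted p = 0.0122). Each K/L array lay above each Sox4 array for these 3 genes, as for 27.2 percent of tested genes. Psat1, Phgdh and Slc7a5 had the other sign, at -0.14 (-0.38 to 0.1, adjusted p = 0.387), -0.15 (-0.37 to 0.07, adjusted p = 0.312) and -0.24 (-0.56 to 0.08, adjusted p = 0.254), with each K/L array below each Sox4 array, as for 23.8 percent of tested genes. Shmt2 (0.13, -0.12 to 0.39), Slc3a2 (0.02, -0.41 to 0.46) and Trib3 (0.04, -0.35 to 0.44) overlapped. The intervals allow differences of up to about these bounds in either direction and do not show that the leukaemias are alike. Among all tested genes 51.5 percent of calls were higher in K/L cells with the deposited scaling and 63.6 percent under median centring.

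The other probe sets of these genes did not always give the same size. In all, 23 probe sets carry 1 of the 10 symbols alone, and 8 of the 10 genes have more than 1. Psat1 gave close values on both of its sets, 0.68 and 0.59 in K/L cells and 0.82 and 0.8 in Sox4 cells. All 4 sets of Phgdh are of the _x_at kind, which can take up signal of related sequences, and they ran from 0.03 to 0.7 in K/L and from 0.32 to 0.85 in Sox4 cells. Shmt2 was read from an _x_at set, and the brightest of its sets without that mark gave larger values, 1.15 in K/L and 0.9 in Sox4 cells, while the dimmest of the 4 gave 0.16 in K/L and 0.12 in Sox4 cells. The second set of Asns gave 1.63 in K/L and 0.9 in Sox4 cells, where its Sox4 call was lost (adjusted p = 0.0604). The second set of Ddit3 gave 0.57 in K/L cells (adjusted p = 0.062, call lost) and 0.44 in Sox4 cells. The other sets of Atf4 gave 0.02 and 0.27 in K/L and -0.06 and 0.21 in Sox4 cells. The second set of Trib3, which is not of the _x_at kind, gave -0.09 in K/L and 0.00 in Sox4 cells, and Slc7a5 and Slc3a2 have 1 set each.

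**Figure D3:**
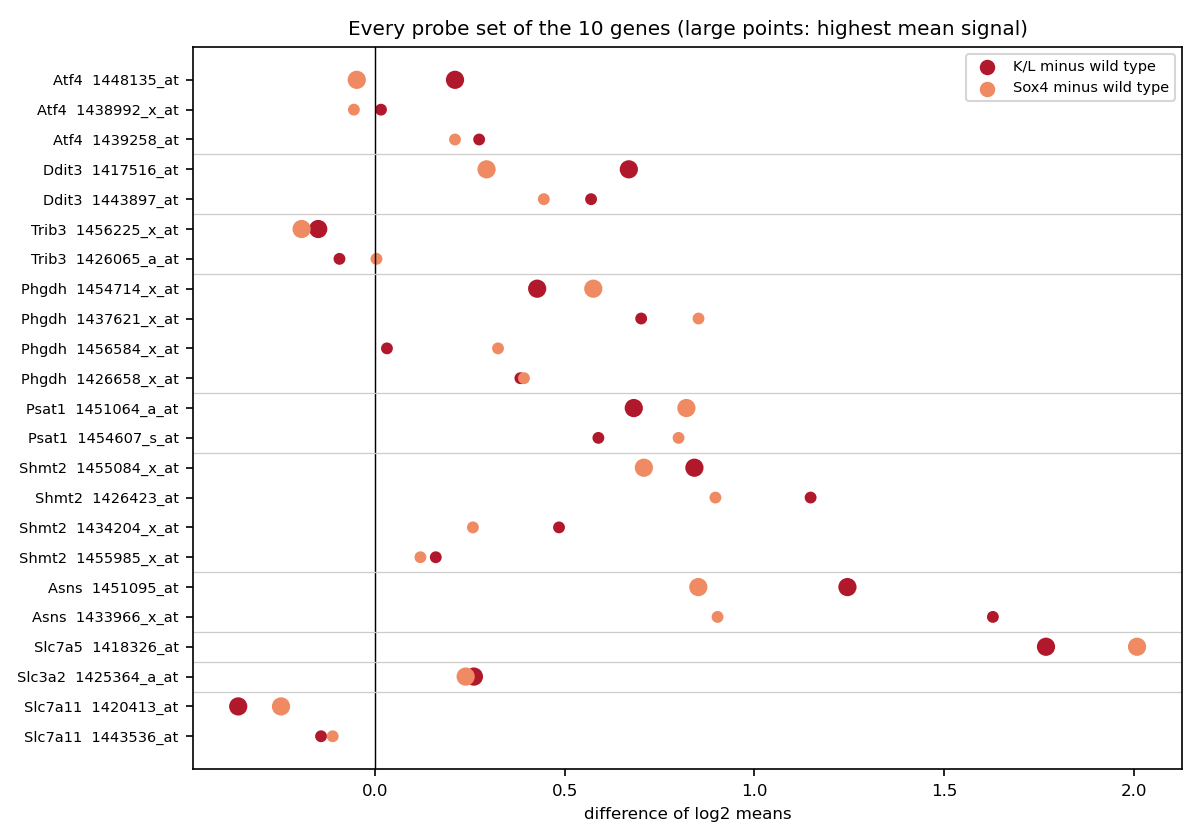
Difference from wild type (log2, horizontal axis) for each of the 23 probe sets of the 10 genes, K/L and Sox4 in their own colours, with large points for the set of highest mean signal. Sets of Phgdh, Shmt2 and Asns spread widely, while all sets of Psat1 lie between 0.59 and 0.82.

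Likeness over the 9 arrays is given as a description, since the points share 3 groups. Among the enzyme and transporter genes, Pearson r was 0.96 between Phgdh and Slc7a5, 0.96 between Shmt2 and Slc7a5, 0.93 between Asns and Shmt2 and 0.92 between Psat1 and Slc7a5. Atf4 had r of 0.79 with Ddit3, 0.58 with Asns, 0.13 with Phgdh and 0.11 with Psat1. Slc7a5 and its partner Slc3a2 had r of 0.57. Outside the 10 genes, and with uncharacterised transcripts left out, the tested genes most like Atf4 over the 9 arrays were Rab3c (0.93), Smndc1 (0.92) and Hoxb13 (0.92). Those most like Asns were Wdfy4, R3hdm1 and Mast3 (0.99 each), and those most like Ddit3 were Tcf7l1 (0.98), Smpd4 (0.96) and Zfp282 (0.95). Some were dim: Hoxb13 averaged 4.84 in Sox4 and 4.89 in wild type cells, Rab3c 4.78 in Sox4 and Tcf7l1 4.8 in wild type cells. The 40th percentile of an array was 4.84 to 4.95.

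Of the genes that act upstream of ATF4 translation (eIF2 kinases, the exchange factor eIF2B and the phosphatase subunits that act on eIF2), 5 of 11 tested were higher and 0 lower in each leukaemia. Among all tested genes 29 percent were called higher in K/L and 26.7 percent in Sox4 cells, and 21.6 and 21.1 percent lower. The median was 0.37 in K/L and 0.34 in Sox4 cells, or 0.3 and 0.31 without wild type replicate 3. Eif2ak3, which encodes the endoplasmic reticulum kinase PERK, rose by 1.08 in K/L cells (adjusted p = 0.000279) and by 0.61 in Sox4 cells (adjusted p = 0.0087). Eif2ak4, which encodes GCN2, the kinase that senses uncharged transfer RNA, did not pass, with 0.22 in K/L cells (adjusted p = 0.123) and 0.18 in Sox4 cells (adjusted p = 0.209). Eif2b5, which encodes the catalytic subunit of eIF2B, rose by 0.56 in K/L cells (adjusted p = 0.000741) and by 0.33 in Sox4 cells (adjusted p = 0.0157). Ppp1r15b, which encodes a constitutive phosphatase subunit, rose by 0.46 in K/L cells (adjusted p = 0.00917) and by 0.63 in Sox4 cells (adjusted p = 0.00161). Eif2b2, another eIF2B subunit gene, rose by 0.75 in K/L cells (adjusted p = 0.00027), and K/L minus Sox4 was 0.85 (adjusted p = 0.000244).

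Of the leucine zipper factors that pair with ATF4 or are related to it, 4 of 6 tested were higher in K/L and 5 in Sox4 cells, with 0 lower. For all tested genes the share called higher was 29 percent in K/L and 26.7 percent in Sox4 cells, and the share called lower 21.6 and 21.1 percent. The median was 1.08 in K/L and 0.7 in Sox4 cells, or 0.77 and 0.72 without wild type replicate 3. Without wild type replicate 3, 1 of the 6 was called lower in Sox4 cells. Cebpb, whose product can dimerise with ATF4, rose by 1.21 in K/L cells (adjusted p = 0.00163) and by 1.24 in Sox4 cells (adjusted p = 0.00141). Atf5, an ATF4 relative that is also translated under eIF2 phosphorylation, rose by 1.12 in K/L cells (adjusted p = 0.000445) and by 0.98 in Sox4 cells (adjusted p = 0.00108). Nfe2l1, a regulator of proteasome genes, rose by 1.16 in K/L cells (adjusted p = 0.000149) and by 1.07 in Sox4 cells (adjusted p = 0.000252). Jdp2, an AP-1 repressor gene, rose by 1.03 in K/L cells (adjusted p = 0.00869), and Cebpg, which encodes another ATF4 partner, by 0.4 in Sox4 cells (adjusted p = 0.0232).

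Other genes known as ATF4 stress targets went different ways, with 4 of 9 tested higher and 1 lower in each leukaemia. Called over all tested genes were 29 percent higher and 21.6 percent lower in K/L, and 26.7 and 21.1 percent in Sox4 cells. The median was 0.27 in K/L cells, or 0.17 without wild type replicate 3, and 0.36 in Sox4 cells. Ddit4, which encodes the mTORC1 inhibitor REDD1, averaged 10.32 in K/L and 8.24 in Sox4 cells against 7.92 in wild type cells, and rose by 2.4 in K/L cells (adjusted p = 4.22e-05). Sesn2, another inhibitor of mTORC1, rose by 0.59 in K/L cells (adjusted p = 0.00905), and Bbc3, which encodes the death protein PUMA, by 0.62 (adjusted p = 0.00655). In Sox4 cells Chac1, a glutathione-degrading enzyme gene, rose by 1.22 (adjusted p = 0.000925) over a wild type level of 4.05, below the 40th percentile, Nupr1 by 1.02 (adjusted p = 0.000691) and Xpot, a transfer RNA export factor gene, by 0.55 (adjusted p = 0.00224). Stc2, a secreted glycoprotein gene, was the 1 that fell, to 4.34 in K/L and 5.07 in Sox4 cells against 8.19 in wild type cells, its K/L level lying below the 40th percentile. Its difference was -3.85 in K/L cells (adjusted p = 1.47e-08) and -3.11 in Sox4 cells (adjusted p = 7.72e-08).

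**Figure D4:**
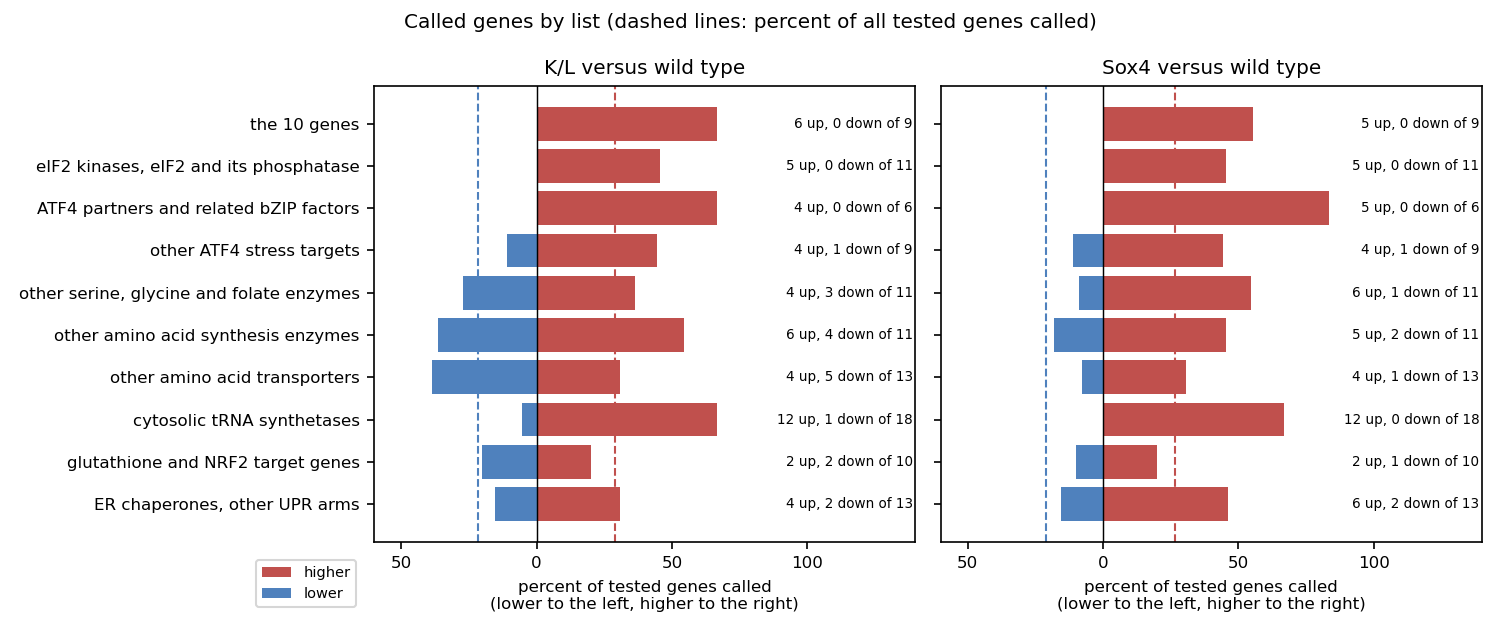
Percent of the tested genes of each list called higher (right of 0) or lower (left of 0), for K/L and Sox4 against wild type, with counts at the right. Dashed lines give the percent called over all tested genes, 29 higher and 21.6 lower for K/L, 26.7 higher and 21.1 lower for Sox4.

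Beyond Phgdh, Psat1 and Shmt2, the serine, glycine and folate enzymes had 4 of 11 tested genes higher and 3 lower in K/L cells (median -0.01, or 0.03 without wild type replicate 3), and 6 higher and 1 lower in Sox4 cells (median 0.48), where 2 were lower, with a median of 0.62, without wild type replicate 3. Shares over all tested genes were 29 percent higher and 21.6 percent lower in K/L, and 26.7 and 21.1 percent in Sox4 cells. The mitochondrial folate enzyme genes Mthfd2 and Mthfd1l and the cytosolic Mthfd1 rose in both leukaemias. In K/L cells Mthfd1l rose by 1.37, Mthfd2 by 1.33 and Mthfd1 by 1.07 (adjusted p = 1.02e-05, 2.43e-05 and 2.54e-05), and in Sox4 cells by 1.06, 0.82 and 0.81 (adjusted p = 5.68e-05, 0.000582 and 0.000167). Mthfd2l, a relative of Mthfd2, fell by 1.87 in K/L cells (adjusted p = 0.00046) and by 1.98 in Sox4 cells (adjusted p = 0.000332). Psph, which encodes the phosphatase that completes serine synthesis after Phgdh and Psat1, gave 0.13 in K/L cells (adjusted p = 0.421) and rose by 0.48 in Sox4 cells (adjusted p = 0.00914), while K/L minus Sox4 did not pass (adjusted p = 0.057). Tyms, the thymidylate synthase gene, changed by -0.68 in K/L cells (adjusted p = 0.00216), and Aldh1l1, a cytosolic folate enzyme gene, rose by 1.27 in Sox4 cells (adjusted p = 0.000475) over a wild type level of 4.42, below the 40th percentile.

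Other amino acid synthesis genes had 6 of 11 higher and 4 lower in K/L cells (median 0.46, or 0.38 without wild type replicate 3), and 5 higher and 2 lower in Sox4 cells (median 0.1, or 0.19 without wild type replicate 3). The whole set of tested genes had 29 percent higher and 21.6 percent lower in K/L, and 26.7 and 21.1 percent in Sox4 cells. Aldh18a1, which opens proline synthesis, rose by 0.7 in K/L cells (adjusted p = 0.000594) and by 1.02 in Sox4 cells (adjusted p = 5.52e-05). Got1, the cytosolic aspartate aminotransferase gene, averaged 4.22 in K/L and 9.65 in Sox4 cells against 9.99 in wild type cells, a difference of -5.77 in K/L cells (adjusted p = 1.52e-09) to a level below the 40th percentile. Glul, which encodes glutamine synthetase, averaged 6.62 in K/L and 10.59 in Sox4 cells against 11.02 in wild type cells (-4.4 in K/L cells, adjusted p = 3.44e-08). Neither passed in Sox4 cells (Got1 -0.34, adjusted p = 0.052, and Glul -0.43, adjusted p = 0.0517). Gpt2, the mitochondrial alanine aminotransferase gene, fell in both, by 0.55 in K/L cells (adjusted p = 0.0172) and by 1.33 in Sox4 cells (adjusted p = 0.000105).

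Of the other amino acid transporters, K/L cells had 4 of 13 higher and 5 lower, and Sox4 cells had 4 higher and 1 lower. The counts of higher genes lie near the shares over all tested genes, 29 percent in K/L and 26.7 percent in Sox4 cells. Lower were 21.6 percent of all tested genes in K/L and 21.1 percent in Sox4 cells. The median was -0.02 in K/L cells, or -0.16 without wild type replicate 3 and 0.07 under median centring, and 0.07 in Sox4 cells. Slc7a1, the cationic amino acid transporter CAT-1, rose by 1.39 in K/L cells (adjusted p = 0.000352) and by 1.59 in Sox4 cells (adjusted p = 0.000152). Slc7a7 and Slc7a8, which like Slc7a5 encode light chains that pair with the Slc3a2 product, rose in K/L cells by 1.15 and 0.9 (adjusted p = 0.00013 and 0.0017) and by 0.63 and 1.07 in Sox4 cells (adjusted p = 0.00536 and 0.000617). The lysosomal arginine sensor gene Slc38a9 fell by 1.93 in K/L cells (adjusted p = 3.68e-06) and by 0.46 in Sox4 cells (adjusted p = 0.0234). Slc1a5, which encodes the glutamine transporter ASCT2, rose by 0.93 in Sox4 cells (adjusted p = 0.00447) and gave 0.09 in K/L cells (adjusted p = 0.762).

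The cytosolic transfer RNA synthetases, which charge transfer RNAs with amino acids and many of which are ATF4 targets, had 12 of 18 tested genes higher in each leukaemia, with 1 lower in K/L and 0 lower in Sox4 cells. Higher over all tested genes were 29 percent in K/L and 26.7 percent in Sox4 cells, and lower 21.6 and 21.1 percent. The median was 0.35 in K/L and 0.33 in Sox4 cells. Vars, the gene for the valine enzyme, rose by 1.55 in K/L cells (adjusted p = 1.09e-05) and by 1.32 in Sox4 cells (adjusted p = 3.35e-05), and Yars, that for tyrosine, by 0.78 in K/L cells (adjusted p = 0.00017) and by 1.2 in Sox4 cells (adjusted p = 1.1e-05). Wars and Gars, for tryptophan and glycine, rose in K/L cells by 1.28 and 1.08 (adjusted p = 5.94e-05 and 0.000141) and by 0.62 and 0.59 in Sox4 cells (adjusted p = 0.00524 and 0.00581). Nars, whose product loads asparagine onto its transfer RNA, was the 1 lower in K/L cells, at -0.34 (adjusted p = 0.0125, and not past the threshold under median centring), and gave -0.19 in Sox4 cells (adjusted p = 0.129), while Asns was higher in both.

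**Figure D5:**
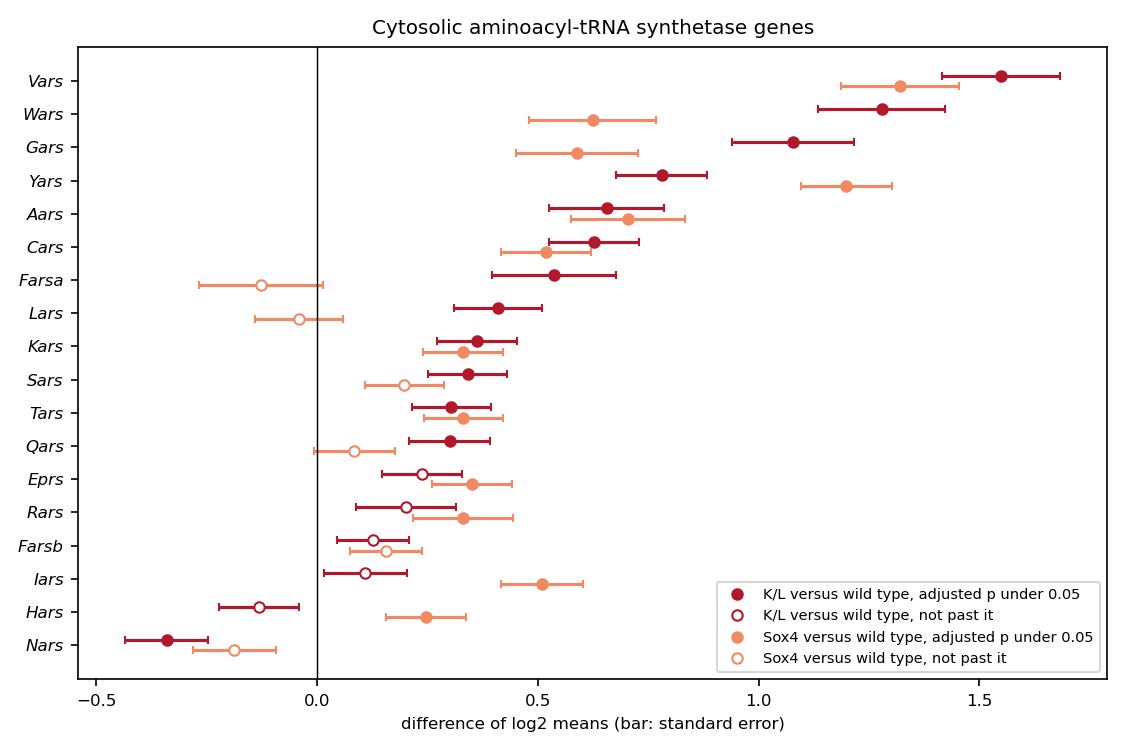
Difference from wild type of the 18 cytosolic transfer RNA synthetase genes in K/L and Sox4 cells (log2, horizontal axis, bar for the standard error, filled where the adjusted p is under 0.05). Vars leads in both at 1.55 and 1.32, and Nars lies below 0 in both.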

How the data were processed

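Per the labels' protocols, total RNA of sorted cells was extracted with Trizol and 5 ug was labelled as biotin cRNA for Affymetrix arrays. The authors deposited 1 table of linear intensity values for 45101 probe sets, with a floor of 8 (3 on the log2 scale) and array medians of 5.43 to 5.55 on that scale. Per the submitters' processing notes RMA was used, with its version and further steps not given in the sources used here. The number of arrays limits the precision.

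Intensities were log2 transformed without further scaling. A platform annotation of 2016 gave 1 symbol to 34958 probe sets, several to 932 and none to 9211, and only the first kind was used. The 10 genes were read from the set of highest mean, and other genes likewise but from an _x_at set only where they have no other. A gene was tested if its value passed the array's own 40th percentile on at least 3 of 9 arrays. limma 3.58.1 in R 4.3.3 fitted all 9 arrays with group as the only term (degrees of freedom: 6 residual, 3.71 prior). Adjustment was by Benjamini-Hochberg over 12826 genes, with 0.05 as threshold. The fit was tested on simulated data. Alternatives were the scaling, the filter, the choice of probe set, the groups fitted, limma-trend, a replicate block and each array left out.

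The genes and lists were chosen with earlier results of these data known. Genes named besides the 10 are up to 4 called genes per list and comparison with the smallest p, the 3 most correlated with Atf4, Asns and Ddit3, and Sox4, Cebpa and the sort markers. Uncharacterised transcripts, such as those known only by a clone name, were left out of the correlated genes. Eif2ak4, Psph, Nars, Slc7a7, Edem1, Dnajb9, Xist, Kdm5d and the single cell type markers were named after their values were seen.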

Additional observations from a re-analysis of the deposited data

Results flagged for a closer look

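K/L minus Sox4 is the test of whether the leukaemias' changes from wild type differ. It passed an adjusted p of 0.05 in limma for 38 of 102 tested genes of the pathway lists (37.3 percent, with 15 of them higher and 23 lower in K/L). Of all tested genes 28.9 percent passed, 14.9 percent higher and 14 percent lower in K/L. None of the 9 tested amino acid response genes passed. Given below are up to 4 passing genes per list with the smallest p, 28 in all, of which 10 were higher in K/L and 18 lower. For Chac1, Stc2, Aldh1l1, Got1, Slc7a2 and Nqo1 a group mean lay below the lowest 40th percentile of an array (4.84), near background. Values are K/L minus Sox4 on the log2 scale.

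Of the genes around eIF2, Eif2ak2 (the kinase PKR) gave -0.61, Eif2ak3 (PERK) 0.47 and Eif2b2 0.85. Of the leucine zipper factors, Cebpg gave -0.40 and Jdp2 0.96. Among stress targets the values were -1.57 for Chac1, -1.3 for Nupr1, -0.74 for Stc2 and 2.09 for Ddit4. The K/L means were 3.69 for Chac1 and 4.34 for Stc2, below that percentile.

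Folate genes gave -1.54 for Aldh1l1, -0.65 for Tyms and 0.51 for Mthfd2. Aldh1l1 lay below the percentile in K/L (4.16) and wild type cells (4.42). The largest differences in size among the 28 were those of Got1, at -5.43, and Glul, at -3.97, while Gpt2 gave 0.78. The Got1 mean in K/L cells, 4.22, was below the percentile. Of 13 transporter genes tested, 1 was higher in K/L cells (Slc7a7, 0.52) and 4 were lower, at -1.63 for Slc7a2, -1.48 for Slc38a9, -1.18 for Slc43a1 and -0.85 for Slc1a5, with Slc7a2 at 3.76 in K/L cells, below the percentile. Of all tested genes 14.9 percent were higher and 14 percent lower in K/L cells.

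Transfer RNA synthetase genes went both ways, with -0.40 for Iars, 0.45 for Lars, 0.65 for Wars and 0.66 for Farsa. Nqo1, an antioxidant enzyme gene, gave 0.50 and averaged 4.58, below the percentile, in wild type cells. Of 13 genes of protein folding in the endoplasmic reticulum and its stress response, 2 were higher in K/L cells (Edem1, 0.45, and Dnajb9, 0.37) and 7 were lower, among them Creld2 at -0.79, Sdf2l1 at -0.76, Dnajc3 at -0.58 and Manf at -0.50. The shares over all tested genes were 14.9 percent higher and 14 percent lower.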

How the results depend on the processing

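The 6 genes called higher in K/L cells and the 5 in Sox4 cells against wild type kept their number in each of the 9 fits that left out 1 array (6 to 6 and 5 to 5), and Atf4 joined the K/L genes as a further call under median centring. For K/L versus Sox4 none of the 9 tested genes was called as reported. Under the alternatives 2 were called with each array centred on its median, 1 with quantile normalisation, 1 with the stricter filter and 1 where only the 2 groups were fitted. With 1 array left out 0 to 2 were called (1 without K/L replicate 3, 2 without wild type replicate 3). The cause was not tested. Of 477 alternative values of single genes, 465 stayed on their side of the threshold (some uncalled values near 0, such as those of Trib3, changed sign), 10 passed newly, 2 no longer passed (Ddit3 in K/L and Asns in Sox4 cells on their second probe sets), and none that was called changed sign. With the replicate block, 1 gene (Ddit3, adjusted p = 0.0432) was called for K/L versus Sox4, and 3503 of all genes in place of 3702; the numbers share no more than a label here, as deviations of same-numbered arrays correlated at -0.02 to 0.08. Median centring moved the share of calls that were higher to 66.1 percent in K/L versus wild type (57.3 percent as deposited) and to 63.6 percent in K/L versus Sox4 (51.5 percent). List counts without wild type replicate 3 or with median centring were added after seeing the data. Signal over background limits Slc7a11 and Trib3.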

Other observations

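Glutathione and NRF2 target genes, the wider programme to which Slc7a11 belongs, had 2 of 10 tested genes higher and 2 lower in K/L cells (median 0.11), or 1 lower under median centring. In Sox4 cells 2 were higher and 1 lower (median -0.01), while 4 were lower (median -0.08) without wild type replicate 3. Over all tested genes 29 percent were higher and 21.6 percent lower in K/L, and 26.7 and 21.1 percent in Sox4 cells. Gss, which encodes glutathione synthetase, rose by 1.69 in K/L cells (adjusted p = 2.13e-05) and by 1.28 in Sox4 cells (adjusted p = 0.000132). Nqo1, a quinone reductase gene, averaged 6.03 in K/L and 5.53 in Sox4 cells against 4.58 in wild type cells, and rose by 1.45 in K/L cells (adjusted p = 4.9e-06) and by 0.95 in Sox4 cells (adjusted p = 7.99e-05). Gsr, which encodes glutathione reductase, fell by 0.26 in K/L cells (adjusted p = 0.0401) and by 0.47 in Sox4 cells (adjusted p = 0.00226).

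Chaperones of the endoplasmic reticulum and the other arms of the unfolded protein response had 4 of 13 genes higher and 2 lower in K/L cells, where 1 was lower under median centring, and 6 higher and 2 lower in Sox4 cells, where 1 was lower without wild type replicate 3. The K/L count of higher genes lies near the 29 percent over all tested genes, which was 26.7 percent in Sox4 cells. Lower over all tested genes were 21.6 percent in K/L and 21.1 percent in Sox4 cells. The median was 0.11 in K/L and 0.15 in Sox4 cells, or 0.19 and 0.21 without that array. Sdf2l1, a chaperone complex gene, rose by 1.11 in K/L cells (adjusted p = 8.8e-06) and by 1.87 in Sox4 cells (adjusted p = 3.27e-07). Dnajc3, a co-chaperone gene that also restrains eIF2 kinases, rose by 0.71 in K/L cells (adjusted p = 0.000223) and by 1.3 in Sox4 cells (adjusted p = 4.77e-06). Ern1, which encodes the stress sensor IRE1, rose by 1.11 in K/L cells (adjusted p = 0.00274) and by 1.08 in Sox4 cells (adjusted p = 0.0034).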
